A study of Mus musculus with 14 samples.

Results

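The MeRIP-seq peak list of wild-type (WT) mouse embryonic stem cells held 17693 m6A peaks, and 2486 of them (14.1%) lay outside every gene of the study's count tables. A peak was taken as lying outside when it touched no exon of any gene and its summit, the base of highest enrichment, lay outside the span from the first to the last base of every gene. By the same gene models 13870 WT peaks overlapped an exon and 1337 had a summit in an intron. The R255K list held 9437 peaks, of which 400 (4.24%) lay outside all genes.

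The study compared WT E14Tg2a cells, an embryonic stem cell line grown on gelatin, with the same line carrying METTL14 R255K, an arginine-to-lysine substitution that CRISPR-Cas9 knocked in. The paper describes an edited R255K line and the sample titles name no clone, so clone and genotype cannot be told apart here. It reports repeating key experiments in a further line or clone, and does not name MeRIP-seq among them. MeRIP-seq, in which fragments of RNA are pulled down with an m6A antibody, was made from 2 immunoprecipitated and 2 input libraries per genotype, with no treatment. Both genotypes were also sequenced once at 0, 4 and 8 h of actinomycin D, which blocks transcription. Each genotype had 1 deposited peak list with no value per replicate, so no spread between replicates could be measured, and the depth of the MeRIP libraries is unknown. Peaks are not replicates of a genotype. Shares are therefore given with Wilson 95% intervals, which cover counting error only.

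METTL14 is the RNA-binding partner of the methyltransferase METTL3, and their complex writes m6A on RNA in the nucleus, mostly where the letters GGAC or close relatives occur. The mark is best known on messenger RNA, but any RNA that the complex meets can carry it, including RNA from repeats. LINE-1 is the main self-copying retrotransposon of the mouse genome. A full-length element has a promoter of tandem monomers, ORF1 for an RNA-binding protein, ORF2 for an endonuclease and reverse transcriptase, and a 3´ end; embryonic stem cells transcribe it.

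Most of the peaks outside genes fell in LINE-1. Of the 2467 peaks on assembled chromosomes, for which the mm10 sequence could be read, 1406 (57.0%, 95% interval 55.0 to 58.9) aligned to 1 of 2 full-length LINE-1 reference elements over at least 100 bases of the 201 around the summit. The median identity was 98.5%, and 90.1% of the aligned windows had an identity of at least 95%. The same alignment was found for 43.7% of the intronic peaks and for 0.180% of the exonic peaks. The remaining 19 peaks outside genes lay on scaffolds and were not aligned.

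The LINE-1 peaks were recognised through groups of similar sequence. When the windows around all summits were compared with each other, 1724 fell into 52 groups of 2 or more and 743 stood alone. The 5 largest groups held 475, 357, 337, 205 and 56 peaks, and 475, 357, 337, 137 and 54 of these aligned to LINE-1. For each group the commonest stretch of 30 bases with a central GGAC, in capitals, is shown because it gives the letters that recur most in that group. All are read along the strand of the element.

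Group 1, 5´ region of type A: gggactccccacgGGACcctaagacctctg
Group 2, start of ORF2: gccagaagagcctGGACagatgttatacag
Group 3, 5´ region of type B: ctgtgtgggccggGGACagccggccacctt
Group 4, 3´ region: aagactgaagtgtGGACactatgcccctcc
Group 5, ORF1: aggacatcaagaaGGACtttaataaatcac

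The group 1 stretch stood in 292 of the 475 windows of its group (61.5%), and 1 copy lies at chr3:44247886-44247915 on the minus strand of mm10, under a WT peak of 27.5-fold enrichment. The same 30 bases occur 4403 times in the mm10 chromosomes. They stood within 100 bp of the summit of 406 WT peaks and of 31 R255K peaks of any class. The group 3 stretch stood in 98 of 337 windows (29.1%), for example at chr14:42586607-42586636 on the minus strand, and occurs 3357 times in the genome. It stood near 144 WT summits and near 0 R255K summits. The group 2 stretch (chr10:56705741-56705770, minus strand) stood in 80 of 357 windows, the group 4 stretch (chr5:58931535-58931564, plus strand) in 26 of the 137 LINE-1 windows of its group and the group 5 stretch (chr5:85172808-85172837, minus strand) in 33 of the 54. Near WT and R255K summits they stood 101 and 1 times, 38 and 3 times, and 44 and 1 times. Many copies are thus identical over these bases. The authors kept only reads that mapped uniquely, so copies with few such reads can lack a peak. The placing of peaks on single copies was not tested, and the copy is less certain than the family.

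The reference elements were taken from intact copies. A search of mm10 found 3424 open reading frames of at least 1200 codons that align to LINE-1 ORF2, and 3147 of them had 1281 codons. An ORF1 lay in front of 2981. The 1108 elements with group 1 monomers, called type A here, had a median ORF1 of 357 codons, and the 1850 with group 3 monomers, called type B, one of 371 codons. The monomers repeated every 208 bases in type A (quartiles 201 and 208) and every 212 bases in type B (212 and 214). No repeat library was used, so subfamily names are not given. The type A reference element spans chr3:44241208-44247978 and the type B element chr7:108020456-108028095, both on the minus strand and outside all genes.

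The WT peaks stood in front of ORF1 most often. The 5´ region held 813 of the 1406 LINE-1 peaks (57.8%), the 1 kb around the start of ORF2 held 345 (24.5%), and the 3´ region 133 (9.46%). The part of ORF1 before that 1 kb held 57 and the remaining ORF2 held 58. The 1 kb takes in the end of ORF1, where the bin from −400 to −200 bases alone held 57 type A and 61 type B summits. The 57 are therefore not all peaks in ORF1. In type A the 476 peaks of the 5´ region had their median summit at −1782.5, counted in bases from the first base of ORF2, and in type B the 337 such peaks had it at −1830. In the plot of summits along both elements, the 5´ region had 1 broad peak of summits in type A and a pair in type B. Each window was placed by its best alignment to 1 reference copy, whose 5´ region is made of repeated monomers. Which monomer a summit lay in is therefore uncertain, and these positions and shapes depend on the reference copy.

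**Figure D1:**
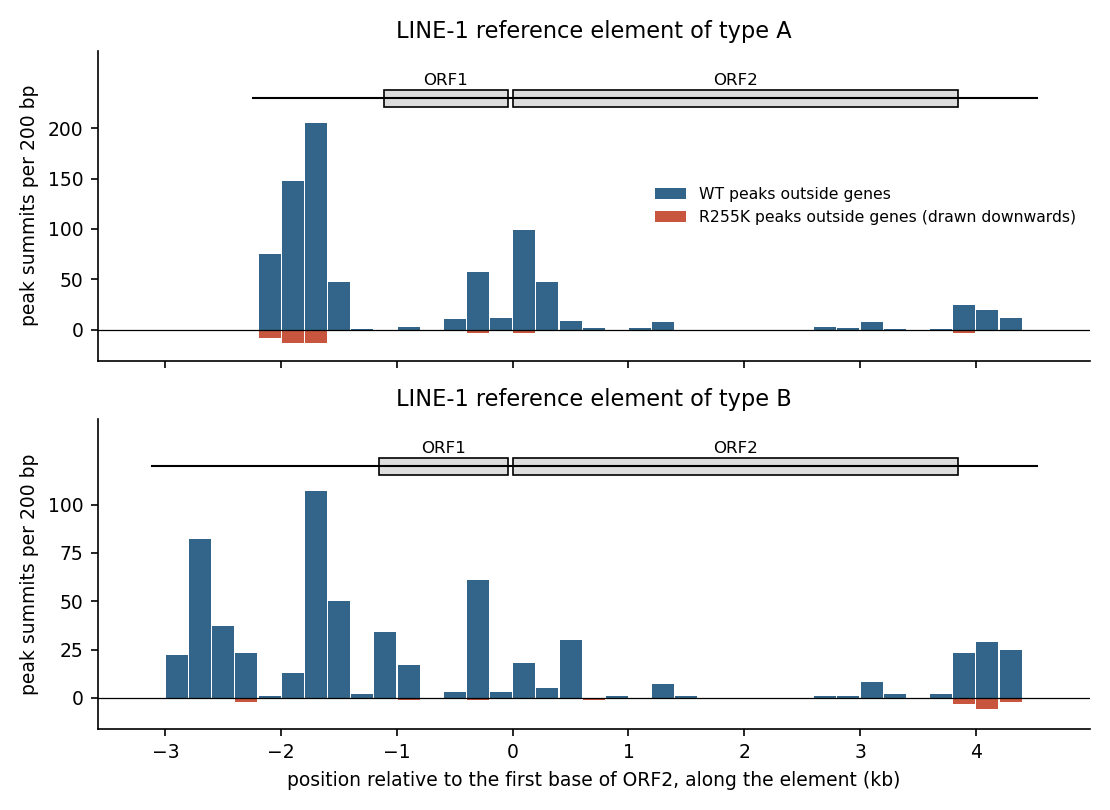
Summits of WT peaks outside genes (upwards) and of R255K peaks outside genes (downwards) along the type A and type B LINE-1 reference elements, in bins of 200 bp, with position in kb from the first base of ORF2 and boxes for ORF1 and ORF2. WT summits gather in the 5´ region, around the ORF2 start and past the ORF2 end, and the R255K bins hold at most 13 summits where the highest WT bin holds 205.

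GGAC was frequent at these places. It stood on the element strand within 100 bp of the summit in 99.4% of the 5´ region peaks (808 of 813), and on the opposite strand in 93.0%, so these GC-rich monomers (median GC 63.2%) hold it on both strands. Around the ORF2 start, with a median GC of 39.3%, 323 of 345 windows (93.6%, 90.5 to 95.8) had GGAC on the element strand and 5 (1.45%, 0.621 to 3.35) on the other. In the 3´ region the shares were 85.7% and 5.26%. The type A reference element had 8.84 GGAC per kb in the 5´ region and 5.67 per kb in the rest, and the type B element 15.3 and 4.93. The strand of the reads is not given by the peak lists.

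Over all 2467 peaks outside genes, 90.8% had GGAC on either strand within 100 bp of the summit (89.6 to 91.9), against 71.8% (70.6 to 73.1) of the windows centred 500 bp to either side. The share was 96.4% for LINE-1 peaks and 83.3% for the others, with 74.1% and 68.8% in their flanks. On exons it was 88.7%, with 72.5% in the flanks. A match of these 4 letters is a description of the window and not a mapped methylated base.

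R255K cells kept few of the WT peaks outside genes. A WT peak counted as kept if it shared 1 or more bases with an R255K peak, and as lost if it shared none. Of the 2486 peaks, 2156 were lost, where 56.4% of all WT peaks were lost. The share kept was 13.3% (330 peaks, 12 to 14.7), close to the 11.7% of intronic peaks (10.1 to 13.5) and far below the 52.1% of exonic peaks (51.3 to 53.0). A lost peak can mean less m6A or less RNA to pull down, and these cannot be told apart from the peak lists.

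The loss was deepest in LINE-1. Of its 1406 peaks outside genes 54 were kept (3.84%, 2.96 to 4.98), against 272 of the 1061 others on chromosomes (25.6%, 23.1 to 28.3). Among those others, 354 had their summit in masked sequence that aligned to neither reference element and kept 23.7% (19.6 to 28.4). The other 707 had it in sequence that is not masked and kept 26.6% (23.5 to 29.97). LINE-1 here means alignment to 1 of the 2 reference elements, so the 354 may include more distant LINE-1 copies. Group 4, for example, joined 205 similar windows, of which 137 aligned. The intronic peaks split alike: 18 of 584 LINE-1 peaks (3.08%, 1.96 to 4.82) and 138 of 753 others (18.3%, 15.7 to 21.2) were kept.

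**Figure D2:**
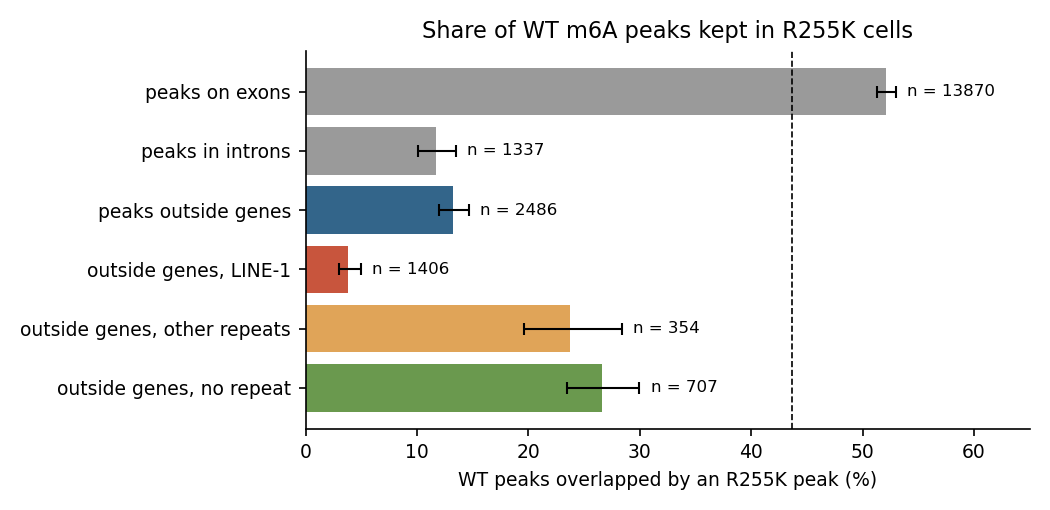
Percentage of WT peaks overlapped by an R255K peak, for exonic and intronic peaks, all peaks outside genes and their 3 sequence kinds, with Wilson 95% intervals and the number of peaks. The dashed line is the share over all WT peaks (43.6%), and the LINE-1 bar, at 3.84%, is the lowest.

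The totals of the lists, which do not require the same copy in both, differed in the same direction. WT cells had 2015 LINE-1 peaks of any class (11.4% of the list) and R255K cells 86 (0.911%), a ratio of 23.4. The peaks not in LINE-1 numbered 15678 and 9351, a ratio of 1.68. Outside genes and LINE-1 the lists held 1061 and 334 peaks on chromosomes, a ratio of 3.18, and on exons 13870 and 8818, a ratio of 1.57. Counted by element, 835 of the 3424 intact copies (24.4%, 23.0 to 25.9) had a WT summit between 4000 bases before and 5000 bases after the ORF2 start, and 30 (0.876%, 0.614 to 1.25) had an R255K summit. Of these 30, 29 also had a WT summit.

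A called WT summit was found at or near type A elements more often than at or near type B elements. How many reads can map uniquely to copies of each type was not examined. A WT summit lay on 405 of 1108 type A copies (36.6%, 33.8 to 39.4) and on 414 of 1850 type B copies (22.4%, 20.5 to 24.3). In R255K cells the numbers were 24 (2.17%) and 5 (0.270%). In the 5´ region 32 of 476 type A peaks were kept (6.72%, 4.80 to 9.34) and 1 of 337 type B peaks (0.297%, 0.0524 to 1.66). Their median WT enrichment was 7.32 and 6.66. Around the ORF2 start 5 of 230 and 1 of 115 were kept, and in the 3´ region 3 of 56 and 11 of 77. The 3´ windows placed on type B had a median identity of 91.6% to the reference, against 99.0% for type A. Windows were placed by best alignment only, so the type of these 77 is less certain. The 57 peaks in the part of ORF1 before the 1 kb around the ORF2 start were all lost, which allows a kept share of up to 6.31% (Wilson upper bound). Peaks at the end of ORF1 are counted with the ORF2 start, so this does not cover all of ORF1.

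LINE-1 peaks were weaker than exonic peaks in q but not in enrichment, so the classes were also compared within groups by −log10 q. Fold enrichment is the pull-down over the local background at the summit, and −log10 q is the peak caller's certainty, which grows with read number. All peaks outside genes had a median enrichment of 6.48 (quartiles 5.33 and 8.65), a median −log10 q of 8.34 (4.68 and 15.8) and a median width of 279.5 bp. Exonic peaks had medians of 6.17, 24.8 and 414 bp. The LINE-1 peaks had 6.49, 7.19 and 265 bp, and the other peaks outside genes 6.41, 9.48 and 299 bp. Values were coarse at the low end: 577 LINE-1 peaks (41.0%) shared the 10 commonest pairs of enrichment and q, against 21.1% of the other peaks outside genes and 3.58% of exonic peaks.

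When all WT peaks were split into 4 equal groups by −log10 q, the kept share rose with strength in each class. In the weakest group (1.31 to 8.34) LINE-1 peaks kept 1 of 771 (0.130%, 0.0229 to 0.731), the other peaks outside genes 7.55% (5.50 to 10.3) and exonic peaks 15.9% (14.5 to 17.4). In the second group the shares were 0.482%, 18.5% and 26.3%. In the third (18.8 to 48.4) they were 14.9% (10.5 to 20.8), 51.0% (44.1 to 57.8) and 53.2% (51.6 to 54.8). In the strongest (48.4 to 293.9) LINE-1 peaks kept 24 of 39 (61.5%, 45.9 to 75.1), the others 79 of 84 (94.0%, 86.8 to 97.4) and exonic peaks 92.5% (91.7 to 93.3). LINE-1 peaks thus stayed below exonic peaks in each of the 4 groups with intervals that did not overlap. Intronic peaks, in and not in LINE-1, kept 3.79, 7.78, 30.8 and 71.7% in the 4 groups. These shares too were below those of exonic peaks. In the strongest group their interval (57.5 to 82.7) overlapped that of LINE-1 peaks outside genes. The groups were wide, and −log10 q was not matched between the classes within a group. The other peaks outside genes were below exonic peaks in the 2 weaker groups, and their intervals overlapped in the 2 stronger ones.

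**Figure D3:**
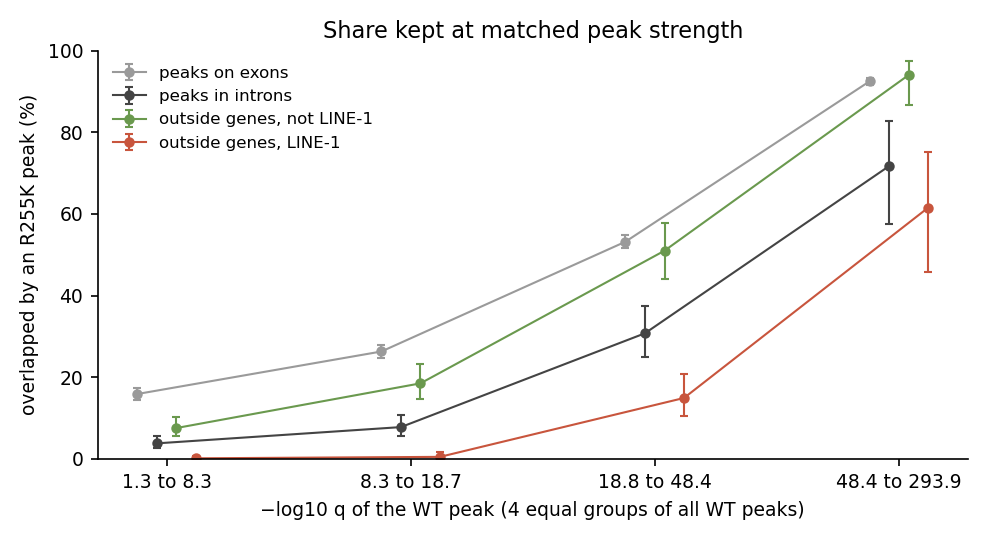
Percentage of WT peaks overlapped by an R255K peak in 4 equal groups of all WT peaks by −log10 q, with Wilson 95% intervals, for exonic peaks, intronic peaks and peaks outside genes in and not in LINE-1. All 4 lines rise with strength and the LINE-1 line is the lowest in each group, from 0.130% to 61.5%.

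The LINE-1 types were also set side by side within these groups, on small numbers. In the weakest group 0 of 196 type A and 0 of 195 type B peaks of the 5´ region were kept, and in the second 1 of 159 and 0 of 89, so no difference was seen there. In the third group 15 of 96 type A peaks were kept (15.6%, 9.70 to 24.2) and 0 of 47 type B peaks, which allows up to 7.56%. In the strongest group 16 of 25 (64%, 44.5 to 79.8) and 1 of 6 (16.7%, 3.01 to 56.4) were kept, with intervals that overlapped.

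Where a peak outside genes was kept, its R255K counterpart was usually lower. The median log2 ratio of R255K to WT enrichment was −0.24 for the 330 kept peaks (quartiles −0.77 and 0.18), and 200 of them (60.6%, 55.2 to 65.7) were lower in R255K. For the 54 LINE-1 peaks the median was −0.42 and 38 were lower (70.4%, 57.2 to 80.9). For the 7231 kept exonic peaks it was −0.34 and 71.0% were lower. Each list was scaled by the peak caller to its own libraries. From the other side, 356 of the 400 R255K peaks outside genes (89.0%) were overlapped by a WT peak. The 44 that were not had a median enrichment of 6.12 and reached 19.1, and 2 of them lay in LINE-1.

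**Figure D4:**
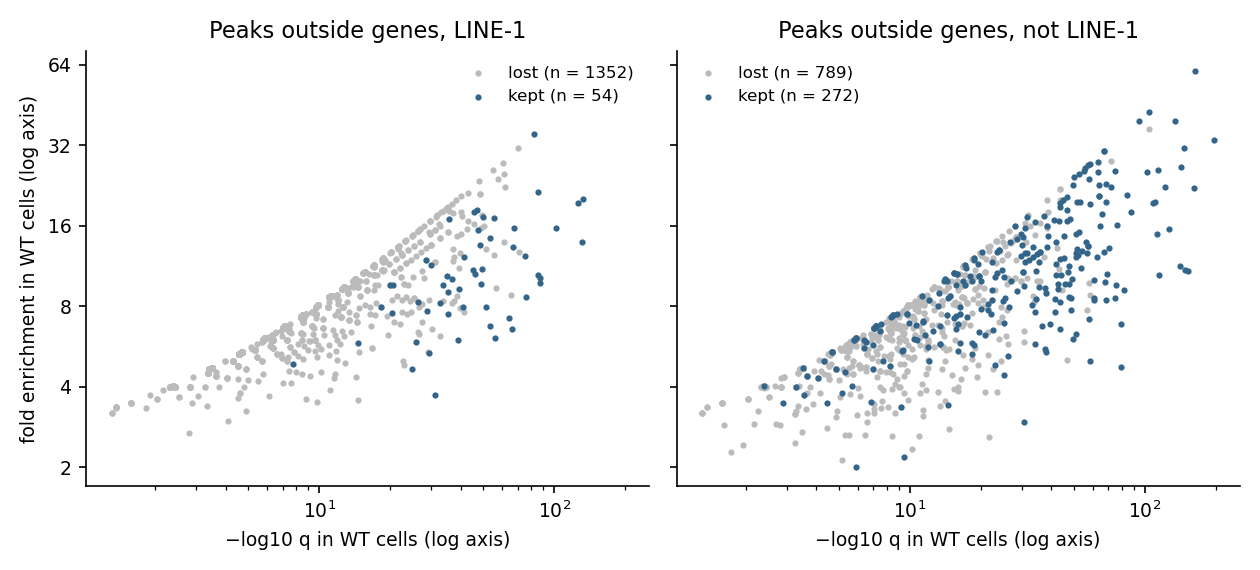
Fold enrichment against −log10 q in WT cells, both on log axes, for each peak outside genes in LINE-1 (left) and not in LINE-1 (right), coloured by whether an R255K peak overlapped it. Kept peaks lie towards the high-q side in both panels, with 54 in LINE-1 and 272 in the rest.

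LINE-1 peaks were spread over all chromosomes. Chromosome X held 135, or 0.789 per Mb, the highest density, with 2.04 intact elements per Mb. Chromosome 11 held 0.221 per Mb with 0.737 intact elements per Mb, and chromosome Y 0.163 with 0.545. The other peaks outside genes were most numerous on chromosomes 2 and 17, with 97 and 85.

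Distance to genes differed between the kinds. The median distance of a summit to the nearest gene was 16.1 kb for all peaks outside genes (quartiles 4.52 and 48.6 kb), 33.2 kb for LINE-1 peaks and 5.46 kb for the others. Within 5 kb of a gene lay 641 peaks (26.0%, 24.3 to 27.7), made up of 128 LINE-1 peaks (9.10%, 7.71 to 10.7) and 513 others (48.4%, 45.4 to 51.4). Of the 640 near peaks with a gene on 1 strand, 370 lay past the gene's end and 270 before its start (57.8% downstream, 54.0 to 61.6). At a limit of 1 kb the downstream share was 49.6%.

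**Figure D5:**
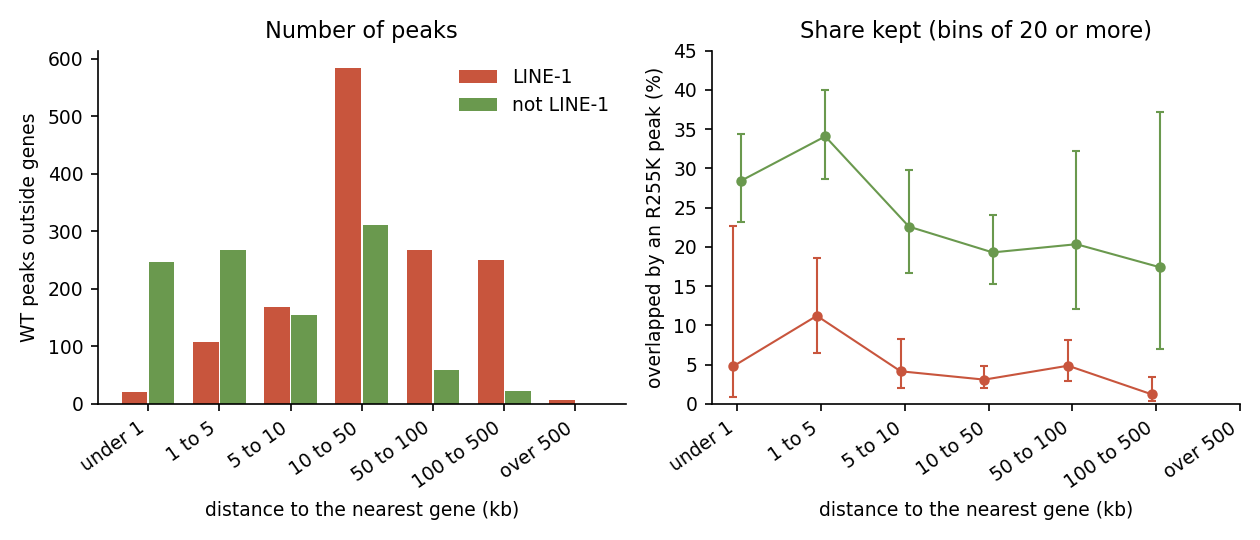
Number of WT peaks outside genes by distance to the nearest gene in kb (left) and the percentage overlapped by an R255K peak with Wilson 95% intervals in bins of 20 or more (right), in and not in LINE-1. Peaks not in LINE-1 gather near genes, and the LINE-1 line stays below the other at each distance, with 11.2% kept at 1 to 5 kb and 1.20% at 100 to 500 kb.

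The kept share fell with distance over all peaks outside genes, from 26.6% under 1 kb and 27.5% at 1 to 5 kb to 8.71% at 10 to 50 kb and 2.56% at 100 to 500 kb. LINE-1 peaks made up 21 of the 267 peaks under 1 kb and 250 of the 273 at 100 to 500 kb. Among peaks not in LINE-1 the kept share was 28.5% under 1 kb (23.2 to 34.4), 34.1% at 1 to 5 kb (28.7 to 39.96), 19.3% at 10 to 50 kb (15.3 to 24.04) and 17.4% at 100 to 500 kb (6.98 to 37.1). The 5 peaks farthest from a gene of the count tables, at 506 to 651 kb, were all in LINE-1 and all lost, and their enrichment ran from 3.59 to 10.8. They lay on chromosomes 15 and 18, where the count tables lack many newer genes, and the one at 506 kb was in an exon of newer annotation. The closest to the rule's edge on the outside was a lost peak 0.089 kb past Camkmt (7.58-fold), followed by a kept peak 0.098 kb before 2900052L18Rik (4.56-fold), both in exons of newer annotation. The closest on the inside were a lost peak 185 bases into Gm6483 (6.36-fold) and a kept peak 253 bases into Abcf2 (5.97-fold).

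The genes next to near peaks were more often expressed. Of the 313 genes with a peak within 5 kb past their end, 149 had at least 1 FPKM (read counts scaled to gene length and library total) in the WT library at 0 h (47.6%, 42.1 to 53.1). For the 243 genes with a peak within 5 kb before their start it was 58.0% (51.7 to 64.1). It was 17.99% (16.02 to 20.1) for the 1334 genes nearest to the more distant peaks and 22.2% for all 52459 genes. An exonic WT peak was found on 115 of the 313 genes (36.7%) and on 17.6% of all genes. Of the 112 downstream peaks behind genes that were at 1 FPKM and had their own exonic peak, 42 were kept (37.5%, 29.1 to 46.7), and of the 72 behind genes at 1 FPKM without one, 27 were kept (37.5%, 27.2 to 49.05). Of the 26 behind genes under 1 FPKM with an exonic peak, 8 were kept (30.8%, 16.5 to 49.99). Of the 160 behind genes with neither, 27 were kept (16.9%, 11.9 to 23.4), and 58 of these 160 were in LINE-1.

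The downstream peak of highest enrichment was a kept peak of 26.5-fold at chr2:175019670-175021103, 1.59 kb past Gm14444, which had 2.31 FPKM in WT and 0.796 in R255K cells at 0 h. A kept peak of 23.9-fold lay 0.273 kb past Glp1r, the GLP-1 receptor gene, at 0.814 and 0.475 FPKM. A lost peak of the same enrichment lay 3.07 kb past Olfr478, an olfactory receptor gene with 0 counts in all 6 libraries, and it was a LINE-1 5´ region. Kept peaks also lay 1.46 kb past Zfp971 (19.4-fold), which encodes a zinc finger protein, 1.38 kb past Gm14411 (19.3-fold), 1.29 kb past Gm2381 (22.2-fold), 1.74 kb past Gm14127 (20.9-fold), 1.62 kb past Gm13421 (22.9-fold) and 2.22 kb past Gm10351 (19.5-fold, a type B LINE-1 3´ region). The last of the 10 lay 4.06 kb past Ino80c, a subunit gene of the INO80 chromatin remodeller, with 18.8-fold and 14.6 and 14.3 FPKM. All 10 but the one behind Olfr478 were kept, and those behind Glp1r, Gm13421, Gm10351, Zfp971 and Ino80c lay in an exon of the newer annotation (GENCODE vM21 or RefSeq). Each FPKM is from 1 library, so these differences have no replicate check.

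Some peaks outside the count tables' genes lay in genes of newer annotation. Of the 2467 peaks, 344 (13.9%) overlapped an exon and 242 an intron of a GENCODE vM21 or RefSeq gene. Nearly all exonic overlaps, 334 of 344, were of peaks not in LINE-1, where they made up 31.5%. Of those 334, 107 were kept (32.04%, 27.3 to 37.2). Of the 614 peaks in neither LINE-1 nor any newer gene, 141 were kept (23.0%, 19.8 to 26.5). The count tables held 52459 genes, and 6950 of the 7241 vM21 genes whose symbol they lacked lay on chromosomes 9, 10 and 12 to 19, so the rule is looser there.

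The peak outside genes of highest enrichment, 60.8-fold with a −log10 q of 164, lay at chrX:99820153-99820767, 0.611 kb before Tmem28 by the count table and in an exon of that gene by the newer annotation, and was kept. Eppk1, which encodes the cytolinker epiplakin and whose place no gene of the count tables spans, held 8 peaks from 4.98 to 25.3-fold over 10.3 kb of chromosome 15, and 6 of them were kept. In the list by −log10 q, 10 of 10 peaks were kept, and 1 of them lay in LINE-1. Of the 10 peaks of highest enrichment 8 were kept. The lost ones were a 36.9-fold peak in masked sequence 148 kb from Tspyl5 and a 31.3-fold peak in a type B LINE-1 5´ region, 6.54 kb before Gm4835.

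Of the 10 highest, 6 lay outside both LINE-1 and newer genes. The 61 bases around their summits are shown, on the plus strand of mm10, because they tell what the strongest unannotated peaks are made of. Capitals mark GGAC.

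chr6:49236522-49236582: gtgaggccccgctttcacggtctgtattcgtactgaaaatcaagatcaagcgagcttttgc
chr8:15519890-15519950: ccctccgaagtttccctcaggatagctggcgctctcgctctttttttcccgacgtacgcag
chr15:86194880-86194940: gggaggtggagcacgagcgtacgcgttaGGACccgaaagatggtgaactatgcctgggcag
chr15:33836332-33836392: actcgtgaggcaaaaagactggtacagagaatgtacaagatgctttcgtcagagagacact
chr3:5860565-5860625: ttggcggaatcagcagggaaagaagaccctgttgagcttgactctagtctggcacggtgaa
chr7:26425131-26425191: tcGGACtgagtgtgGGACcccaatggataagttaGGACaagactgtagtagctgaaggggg

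The chromosome 6, chromosome 8, first chromosome 15 and chromosome 3 stretches can be recognised as copies of 28S ribosomal RNA. The full 28S sequence was not in the reference used here, so this was not tested by alignment. The chromosome 6 window aligned at 98.8% identity to a transcript of Lars2, whose mouse 3´ part is known to carry 28S sequence. These 4 peaks had enrichments of 42.6, 39.5, 39.3 and 33.5 and were all kept. The paper describes a step that removed ribosomal RNA from the input RNA and mentions none for the pulled-down RNA. The authors also discarded reads that mapped to ribosomal RNA before alignment. What part either step, or ribosomal RNA itself, has in these peaks was not tested. The second chromosome 15 stretch belongs to the lost 36.9-fold peak, and its window resembles part of a Cd84 transcript at 95.5% identity. The chromosome 7 stretch, with 3 GGAC, belongs to a kept peak of 30.3-fold, 9.95 kb before Nlrp4a.

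Peaks outside genes were often close to each other. In chains with gaps of at most 10 kb stood 865 of them (34.8%, 32.9 to 36.7), in 352 clusters. The share was 34.9% for LINE-1 peaks and 34.3% for the others. Clustered LINE-1 peaks were kept in 6.73% (4.84 to 9.31) and lone ones in 2.29% (1.504 to 3.48). The biggest cluster had 13 peaks, all in masked sequence and 12 of them in LINE-1, over 13.6 kb at chr10:27812096-27825702, of which 4 were kept. The next had 10 peaks, all in LINE-1, over 11.8 kb at chr3:6297675-6309456, with 5 kept. Then came the 8 Eppk1 peaks, 8 LINE-1 peaks at chr2:80805003-80817200 with 3 kept, and 7 peaks at chr2:177088141-177100450, near Gm14401, with 5 in LINE-1 and 2 kept. These 3 clusters with 8 or more LINE-1 peaks held 11 of the 54 kept LINE-1 peaks of the genome, from 3, 5 and 3.

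LINE-1 RNA itself could not be followed in the count tables. The 44 listed genes that lie at least 80% inside an intact element had 5, 4 and 3 counts in all in the WT libraries at 0, 4 and 8 h, and 0, 3 and 1 in the R255K libraries, of 13812160 to 18813640 counts per library. The level of LINE-1 RNA in R255K cells was therefore not measurable here. The 6 pluripotency markers were abundant in both genotypes, from 173 to 878 FPKM in WT and from 80.4 to 593 FPKM in R255K cells at 0 h. The 4 fibroblast markers summed to 2.11 FPKM in WT and 6.89 FPKM in R255K cells. The part of this difference in the loss of peaks was not tested. Mettl14 RNA had 5.27 FPKM in WT and 2.58 in R255K cells at 0 h, and Mettl3 RNA 8.95 and 9.89, each from 1 library. In R255K cells the paper reports METTL14 protein as not substantially affected and METTL3 protein as not changed.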

How the data were processed

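The authors discarded reads that mapped to ribosomal RNA with Bowtie2 2.2.6, aligned the rest to mm10 with HISAT2, kept unique reads of high mapping quality with Picard 2.16.0 and SAMtools 0.1.09, and called peaks of MeRIP over input with MACS2. How the 2 replicates were combined is not given in the sources used here. The deposited peak lists give the fold enrichment, a ratio, and the −log10 q of each peak. The deposited count tables hold raw read counts per gene for 6 actinomycin D libraries of 13812160 to 18813640 counts, and FPKM was computed from the counts, the listed gene lengths and these totals.

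Gene spans and exons came from the count tables, whose 48108 symbols shared with GENCODE vM21 had the same start and end in 94.6% of cases. Overlaps were made with bedtools 2.31.1. Sequence was read from the soft-masked RefSeq mm10 (GRCm38) genome. Windows of 201 bases around the summits were aligned with blastn 2.17.0 to each other and to the 2 LINE-1 elements, requiring at least 100 bases, 80% identity and an E-value of at most 1e-10. Distances ran from the summit to the nearest gene span. The scripts were tested on simulated data. No count model was fitted, since each genotype and time had 1 library, and peaks were compared by Wilson 95% intervals of shares computed in Python 3.11.15.

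The regions named were the 10 of highest fold enrichment and of highest −log10 q, the 5 largest clusters, the 5 farthest from a gene, those nearest to the edge of the rule, and the 10 strongest within 5 kb past a gene end. The class of peaks and the lists were chosen with earlier results of these data known, and the LINE-1 classes were defined after seeing the sequences.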

Additional observations from a re-analysis of the deposited data

How the results depend on the processing

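No paired analysis was possible because each genotype had 1 deposited peak list with no value per replicate. Leaving out a replicate could not be done for the same reason. Of 50 alternatives, 18 moved a result by less than its counting interval (for the number of peaks, by less than 1.5 times) and 32 moved it further. The alternatives on LINE-1 were chosen after seeing the data. The number of peaks outside genes stayed between 1804 and 2486. The cause of the shifts below was not tested.

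The kept share of all peaks outside genes, 13.3%, was 10.98% when R255K peaks had to cover at least 50% of the WT peak, 17.6% when the −log10 q had to reach 5 and 11.7% for summits at least 1 kb from genes. In the 4 strength groups it was 2.96, 8.31, 33.9 and 83.7%. For LINE-1 peaks it was 2.77% under the 50% limit and 5.59% at a −log10 q of at least 5, and for the others 21.9% and 31.6%, with 23.0% outside the newer annotation. LINE-1 peaks were kept less often than the others under each alternative run for both.

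The share in LINE-1 was 54.0% both at 90% identity and at a −log10 q of at least 5. At that q the share in masked repeats was 69.2%, the share within 5 kb of a gene 28.5%, the share in clusters 32.8%, and the median enrichment, −log10 q and width 7.42, 11.2 and 306 bp. Counting only genes of at least 1 FPKM, 14.8% lay within 5 kb. The downstream share of near peaks was 49.6% at 1 kb and 53.8% at 50 kb. With gaps of up to 5 and 50 kb, 30.7% and 45.3% stood in clusters. GGAC within 50 bp was found in 76.7% of peaks and 50.9% of flanks. Within 100 bp it was found in 66.8% of flanks at 1 kb, and in 74.6% of downstream peaks on the strand of the gene. Genes with a peak past their end were at 1 FPKM in 36.1% and 26.5% of cases in the WT 4 and 8 h libraries and in 40.3% in the R255K 0 h library.

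The MeRIP read numbers are unknown, so what depth limits could not be measured. The kept share grew with −log10 q in each class.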

Other observations

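The smaller sequence groups with no alignment to the LINE-1 reference elements varied in the share kept. Over all peaks outside genes and LINE-1 25.6% were kept, and over all WT peaks 43.6%. Group 7, with 30 peaks on 16 chromosomes, had a median enrichment of 8.09 and kept 13 (43.3%, 27.4 to 60.8), and the R255K list held 18 peaks of its sequence outside genes. Group 10, with 21 peaks on 5 chromosomes, kept 8 (38.1%, 20.8 to 59.1), and group 6, with 52 peaks, kept 14 (26.9%, 16.8 to 40.3). Group 8 kept 3 of 22 (13.6%, 4.75 to 33.3) and group 12 kept 2 of 9 (22.2%, 6.32 to 54.7). Groups 6, 7 and 10 lay in masked repeats by over 90% of their summits, and no repeat library was used to name them.

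Of the 707 peaks not in LINE-1 whose summit was not masked, 100 resembled a protein-coding transcript and kept 37 (37.0%, 28.2 to 46.8), against 24.9% (21.6 to 28.5) of the 607 that resembled none. Only 25 of the 100 lay outside the newer annotation, with a median identity of 95.4% to the transcript, and 6 of them were kept.

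A stretch of chromosome 2 around Gm14444, Gm14411 and Zfp971, chosen after its values were seen, held 44 peaks outside genes. Of its 31 peaks not in LINE-1, 13 were kept (41.9%, 26.4 to 59.2), where 25.6% were kept over the genome. The strong kept peaks past Gm14444, Gm14411 and Zfp971 are among the 13, so this share is not independent of the choice.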
